A study of Mus musculus with 12 samples.

Results

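The small heat shock proteins of muscle are described here across cardiomyocyte libraries of mice that had lost most of their kidney tissue or had sham surgery. The genes were taken from the family by name, with no threshold on their measured values, though earlier results of these data were known when the family was chosen: Hspb1, Hspb2, Hspb3, Cryab (also called Hspb5), Hspb6, Hspb7 and Hspb8. All 7 are in the count table of 22794 genes, and all 7 are among the 14412 genes that passed the filter on low counts and were tested. RNA-seq libraries numbering 12, with 3 in each of 4 groups, came from cardiomyocytes isolated from hearts of wild-type (WT) C57BL6 mice killed 16 weeks after surgery. The groups were sham surgery with saline, sham surgery with JV101, 5/6 nephrectomy (NX) with saline, and NX with JV101. JV101 is an injected agent whose content the labels do not give, and the series is titled as a study of gene therapy that recaps telomeres in hearts affected by kidney failure. The labels number the replicates and give neither sex nor age, nor whether each library is 1 animal, so the p-values reflect the spread among these libraries, which may be technical.

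Small heat shock proteins share a conserved alpha-crystallin domain and bind partly unfolded proteins without using ATP. They keep such proteins from aggregating until ATP-driven chaperones refold them or they are sent for breakdown. Heart and skeletal muscle hold more members of the family than most tissues, and mutations in several of them cause muscle or nerve disease. Cryab binds desmin and titin, Hspb8 works with the co-chaperone Bag3 on damaged filamin, and Hspb7 binds filamin C and is needed for sarcomere assembly. The level of each gene is given in CPM, counts relative to the library total after TMM scaling, and in CPM per kilobase where genes are compared with each other.

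The libraries held 26.4 to 33.8 M counts. Mitochondrially encoded protein genes took 36.7% to 69.0% of them, with the highest shares in sham saline replicate 2 (69.0%), NX saline replicate 3 (66.5%) and sham JV101 replicate 2 (58.4%). The 8 markers of ventricular cardiomyocytes were all present, at a summed level of 28730 to 51561 CPM. The 6 atrial markers summed to 46.1 to 2042 CPM, the 6 fibroblast markers to 200.1 to 1083, the 6 endothelial markers to 261 to 1283, and the 7 markers of smooth muscle and pericytes to 142 to 845. Markers of macrophages (111 to 572 CPM), erythroid cells (14.9 to 635), mesothelium (27.4 to 99.3), neutrophils (1.56 to 32.4), lymphocytes (0.55 to 10.8) and adipocytes (0.31 to 8.74) were all measured. Of 6 skeletal muscle markers, 5 were measured and summed to 0.54 to 2.14 CPM, with at least 1 of them at 0 in every group. In bulk libraries, fewer cells of a type and less RNA per cell cannot be told apart.

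Promoter windows of the genes are shown because the heat shock transcription factors bind inverted repeats of GAA, and the members differ in whether such a repeat lies near their start. RefSeq windows of 300 bases (GRCm38.p6, 250 bases before to 50 after the start) were found for 5 of the 7 members, and Hspb6 has a pair of entries. The pattern GAANNTTC, which reads the same on both strands, was found in 4 members and is in capitals below. The windows are those of Hspb1 (chr5:135887669-135887968, plus strand), Hspb6 at its second entry (chr7:30553051-30553350, plus strand), Hspb8 (chr5:116422815-116423114, minus strand), Hspb3 (chr13:113663627-113663926, minus strand) and Hspb7 (chr4:141420529-141420828, plus strand), each written 5′ to 3′.
Hspb1: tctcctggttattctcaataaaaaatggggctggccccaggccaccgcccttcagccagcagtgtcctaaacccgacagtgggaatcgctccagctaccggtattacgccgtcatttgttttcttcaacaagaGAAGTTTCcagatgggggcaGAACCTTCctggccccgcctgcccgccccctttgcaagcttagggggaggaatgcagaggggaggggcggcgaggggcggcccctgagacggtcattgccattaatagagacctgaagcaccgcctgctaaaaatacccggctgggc
Hspb6: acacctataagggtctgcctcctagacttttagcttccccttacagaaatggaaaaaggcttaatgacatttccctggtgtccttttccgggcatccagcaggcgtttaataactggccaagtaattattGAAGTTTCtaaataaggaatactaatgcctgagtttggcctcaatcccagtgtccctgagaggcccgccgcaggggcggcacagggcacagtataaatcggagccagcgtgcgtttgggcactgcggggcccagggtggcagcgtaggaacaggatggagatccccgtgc
Hspb8: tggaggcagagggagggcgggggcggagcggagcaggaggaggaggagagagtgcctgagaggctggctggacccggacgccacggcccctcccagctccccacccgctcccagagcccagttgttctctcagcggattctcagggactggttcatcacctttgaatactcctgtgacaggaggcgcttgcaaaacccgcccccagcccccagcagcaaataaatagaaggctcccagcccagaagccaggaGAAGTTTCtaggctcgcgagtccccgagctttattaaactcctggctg
Hspb3: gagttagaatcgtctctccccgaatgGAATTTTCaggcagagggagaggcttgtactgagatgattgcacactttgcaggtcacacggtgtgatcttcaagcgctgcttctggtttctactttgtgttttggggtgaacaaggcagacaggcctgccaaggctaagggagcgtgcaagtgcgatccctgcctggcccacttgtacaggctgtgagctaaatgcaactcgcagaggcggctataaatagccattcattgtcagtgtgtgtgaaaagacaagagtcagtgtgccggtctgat
Hspb7: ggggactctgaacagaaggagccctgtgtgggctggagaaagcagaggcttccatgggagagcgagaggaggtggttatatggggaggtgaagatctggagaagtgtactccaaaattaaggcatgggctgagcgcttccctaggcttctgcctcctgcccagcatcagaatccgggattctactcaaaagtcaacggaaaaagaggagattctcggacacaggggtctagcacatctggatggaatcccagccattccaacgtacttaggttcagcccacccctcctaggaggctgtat

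Hspb1 was the member whose window held the pattern at 2 places, GAAGTTTC and GAACCTTC, the first of them starting at −117 from the start of the gene. In Hspb6 the match GAAGTTTC began at −120, in Hspb8 the same letters began at base 3 of the gene, and in Hspb3 GAATTTTC began at −224. The Hspb7 window held no match, nor did the first Hspb6 entry (chr7:30552290-30552589, plus strand). The other inverted form, TTCNNGAA, was in none of the 6 windows. Among 32851 promoter windows of the same length, 7.86% held GAANNTTC, 8.52% held TTCNNGAA and 15.1% held either form. A match is a run of letters and not evidence of binding. The box TATAAA was present in Hspb6 (second entry) and Hspb3, against 13.6% of all windows. A match to the MEF2 site, bound by a muscle transcription factor, was present in Hspb3, against 3.19% of all windows. That match contains the TATAAA of the same window, so they are not separate elements.

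By level per kilobase, Hspb7 and Cryab were the most abundant members, at means over the 12 libraries of 476 and 464 CPM per kilobase. Each was above 99.5% of the genes tested. Their order did not hold beyond the spread between libraries, since Hspb7 was above Cryab in 6 of 12. Hspb6 came next at 268 CPM per kilobase and was below Cryab in 12 of 12 libraries. Hspb1 (219) and Hspb8 (167) followed, and these neighbours also changed places: Hspb6 was above Hspb1 in 9 of 12 libraries and Hspb1 above Hspb8 in 9 of 12. This order depends on the lengths implied by the deposited counts and FPKM, 903 bases for Hspb1 and 1816 for Hspb8. By mean CPM, Hspb8 (304) was above Hspb1 (198). Hspb2 stood well below both at 43.9 CPM per kilobase, under Hspb8 in 12 of 12 libraries. Hspb3 was lowest at 5.07 CPM per kilobase, under Hspb2 in 12 of 12, and still above 68.8% of the genes tested. The rest of the family was near absent: Cryaa, the lens partner of Cryab, and Hspb9, known from testis, had 0 or 1 count in every library. Hspb11, an intraflagellar transport protein that carries the family's name, was at 1.09 to 2.48 CPM (30 to 67 counts).

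NX against sham with saline asks what loss of kidney tissue does to these genes in cardiomyocytes, and JV101 against saline asks what the agent does in each surgery group. No member passed the edgeR quasi-likelihood test after Benjamini-Hochberg adjustment over all 14412 genes, in any of the 6 comparisons. The same was true of every gene tested: 0% were called at an adjusted p under 0.05 in each comparison. At an unadjusted p under 0.05, 3.64% of all genes tested were called for NX saline against sham saline, 2.39% for NX JV101 against NX saline and 1.7% for sham JV101 against sham saline. The test called 2.07% for NX JV101 against sham JV101, 6.21% for NX JV101 against sham saline and 1.78% for the interaction of nephrectomy and JV101. Among the members only Hspb1 reached that level, in sham JV101 against sham saline and in NX JV101 against sham saline. Libraries of both groups did not overlap in 10.8%, 8.22%, 3.82%, 5.11% and 18.5% of genes for the 5 comparisons of pairs of groups, in the order just given. The members gave 0, 1, 0, 1 and 2 such genes of 7 in that order, and each of these was Hspb1 or Cryab.

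Hspb1, a stress-inducible member that guards actin filaments and is phosphorylated by MAPKAP kinases, varied more than any other member. It was at 174, 449 and 295 CPM in sham saline replicates 1 to 3, and at 158, 199 and 113 CPM in sham JV101. It was at 148, 189 and 251 CPM in NX saline, and at 115, 145 and 142 CPM in NX JV101. The highest and the lowest group means were those of sham saline, 306 ± 138 CPM, and NX JV101, 134 ± 16.3 CPM (mean ± SD of n = 3 libraries, the form used throughout), whose libraries did not overlap. NX JV101 also lay wholly below NX saline (196 ± 51.8 CPM), whereas sham JV101 (157 ± 43.3 CPM) overlapped with every other group. Within sham saline the highest library was 2.58 times the lowest, against 1.26 times in NX JV101.

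Against sham saline, the fitted log2 difference of Hspb1 was −1.19 in NX JV101 (SE 0.33, unadjusted p = 0.00349, edgeR adjusted p = 0.780). It was −0.97 in sham JV101 (SE 0.32, unadjusted p = 0.0119, edgeR adjusted p = 1.00) and −0.65 in NX saline (SE 0.32, edgeR adjusted p = 0.994). None of these passed, and the lowest adjusted p of the first under any alternative was 0.119, with DESeq2. The direction was negative in all 18 alternatives of each. The size rested in part on sham saline replicate 2: without it the values were −0.81, −0.58 and −0.25 in the same order. With JV101 against saline after nephrectomy the log2 difference was −0.55 (SE 0.32), and −0.35 without NX saline replicate 3. NX JV101 differed from sham JV101 by −0.22 (SE 0.32), and by −0.01 without sham JV101 replicate 2. The interaction, which asks whether the difference with JV101 is the same in NX and sham mice, was 0.42 (SE 0.45, an interval of 2 SE from −0.49 to 1.33). It was 0.02 without sham saline replicate 2 and 0.70 without sham saline replicate 1.

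The libraries with the highest Hspb1 of their group were also those with the highest mitochondrial share in 3 of 4 groups: sham saline replicate 2, sham JV101 replicate 2 and NX saline replicate 3. In NX JV101 the library of highest share, replicate 1, had the lowest Hspb1. The same replicates 2 of both sham groups also had the lowest sums of atrial markers, 46.1 and 58.1 CPM. Over the 12 libraries, log2 CPM of Hspb1 and the logit of that share had r = 0.61 (permutation p = 0.0320, 0.224 adjusted over the 7 members) and Spearman's rho = 0.48 (permutation p = 0.115, adjusted 0.808). Without the 2 libraries farthest from the median share, r was 0.04, so the relation rests on those libraries. After subtracting each group's mean, r was 0.75. Without the 3 libraries named, the log2 differences of Hspb1 from sham saline were −0.82 in NX JV101, −0.81 in sham JV101 and −0.46 in NX saline. With the share as a covariate they were −0.91, −0.87 and −0.69. The part of the mitochondrial share in the spread of Hspb1 was not tested further. The other 6 members had r between −0.44 and −0.08 with that share, and between 0.19 and 0.44 without the 2 farthest libraries, so that each of them changed sign.

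**Figure D1:**
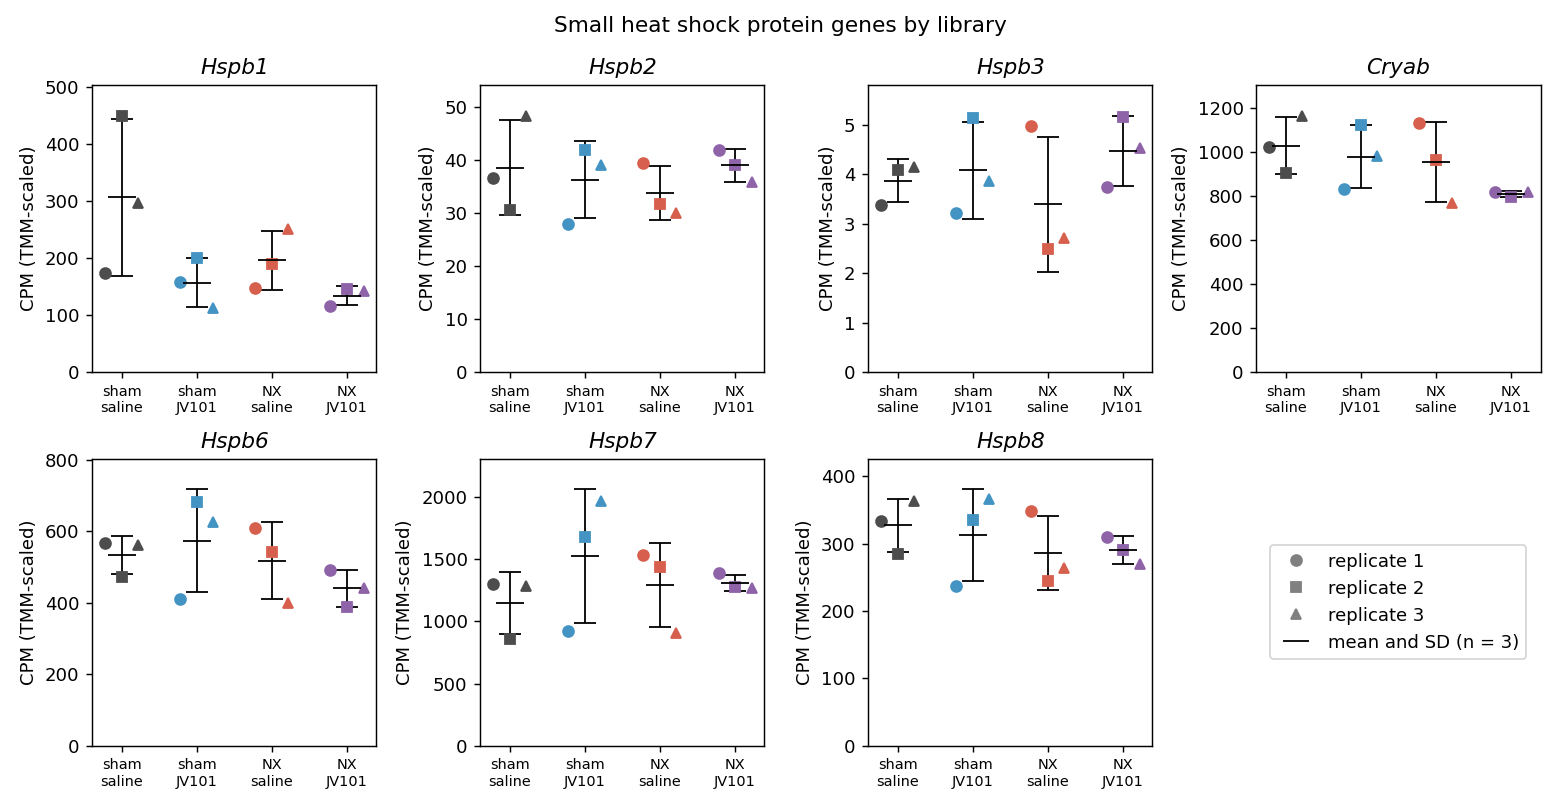
Level of each gene in CPM (linear axis from 0) in the 12 libraries, with 1 panel per gene, points for libraries, and the mean and SD of 3 libraries as bars. Hspb1 runs from 113 to 449 CPM with its top value in sham saline replicate 2, whereas the 3 NX JV101 libraries of Cryab lie between 796 and 818 CPM.

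Cryab, which shields desmin and titin in the sarcomere, had the smallest spread within groups of the 7 members. It was at 1022, 903 and 1166 CPM in sham saline replicates 1 to 3 and at 834, 1124 and 983 CPM in sham JV101. NX saline gave 1133, 964 and 768 CPM, and NX JV101 gave 818, 796 and 818 CPM. The 3 libraries of NX JV101 were nearly alike (811 ± 13.2 CPM) and lay below every sham library, with and without JV101, but within the range of NX saline (955 ± 182 CPM). The fitted log2 difference of NX JV101 from sham saline was −0.35 (SE 0.18, edgeR adjusted p = 0.780) and from sham JV101 −0.27 (SE 0.18, adjusted p = 0.999), and neither passed. NX saline differed from sham saline by −0.11 (SE 0.18) and NX JV101 from NX saline by −0.24 (SE 0.18). The first of these turned to 0.05 without NX saline replicate 3, and the second ran from −0.39 without that library to −0.09 without NX saline replicate 1. The difference from sham JV101 was −0.16 without sham JV101 replicate 2.

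Hspb6, a phosphoprotein of the beta-adrenergic and cyclic nucleotide pathways in heart and smooth muscle, followed Cryab closely. It was at 569, 471 and 562 CPM in sham saline and at 412, 683 and 627 CPM in sham JV101. It was at 611, 544 and 401 CPM in NX saline and at 492, 388 and 441 CPM in NX JV101. All groups overlapped, and the log2 difference furthest from 0 was −0.38 for NX JV101 against sham JV101 (SE 0.22, edgeR adjusted p = 0.999), from −0.57 without sham JV101 replicate 1 to −0.24 without sham JV101 replicate 2.

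Hspb7, the cardiovascular member and the most abundant in this set by counts, was at 1299, 861 and 1285 CPM in sham saline. Sham JV101 gave 922, 1675 and 1965 CPM, NX saline 1530.3, 1432 and 907 CPM, and NX JV101 1385, 1274 and 1268 CPM. The sham JV101 libraries therefore held both a value near the lowest and the highest of the 12. Its log2 difference in sham JV101 against sham saline was 0.41 (SE 0.29, edgeR adjusted p = 1.00), and ran from 0.18 without sham JV101 replicate 3 to 0.67 without sham JV101 replicate 1. In NX saline against sham saline it was 0.17 (SE 0.29, adjusted p = 0.994), from 0.02 without sham saline replicate 2 to 0.39 without NX saline replicate 3. Hspb7 was the sole member with a positive value in the latter comparison.

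Hspb8, the partner of Bag3 in chaperone-assisted selective autophagy, was at 333, 285 and 362 CPM in sham saline and at 236, 335 and 366 CPM in sham JV101. It was at 348, 245 and 264 CPM in NX saline and at 310.1, 291 and 269 CPM in NX JV101. The groups overlapped throughout. Its log2 differences lay between −0.19 (NX saline against sham saline, SE 0.19, from −0.37 without NX saline replicate 1 to −0.10 without NX saline replicate 2) and 0.09 (interaction, SE 0.27).

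Hspb2 and Hspb3 form a complex with each other that arises during muscle differentiation. For Hspb2 the sham saline libraries gave 36.6, 30.7 and 48.4 CPM, sham JV101 28.0, 41.8 and 39.1 CPM, NX saline 39.5, 31.8 and 30.0 CPM, and NX JV101 42.0, 39.1 and 35.8 CPM. Its log2 difference in NX JV101 against NX saline was 0.21 (SE 0.20, edgeR adjusted p = 1.00), from 0.11 without NX saline replicate 3 to 0.34 without NX saline replicate 1. For Hspb3 the sham saline libraries gave 3.38, 4.10 and 4.15 CPM, sham JV101 3.23, 5.15 and 3.86 CPM, NX saline 4.98, 2.50 and 2.71 CPM, and NX JV101 3.75, 5.16 and 4.54 CPM. Hspb3 rests on 50 to 219 counts per library, and its log2 difference in NX JV101 against NX saline was 0.40 (SE 0.29, edgeR adjusted p = 1.00), from 0.21 without NX saline replicate 2 to 0.79 without NX saline replicate 1. For both genes every pair of groups overlapped. In the RefSeq annotation the genes Hspb2 and Cryab overlap on chromosome 9, and the sources used here do not state whether strand was used in counting. Reads of Cryab, at 14183 to 39939 counts, and Hspb2, at 531 to 1660 counts, may therefore not be fully separated. Lin37 overlaps Hspb6 but had 61 to 184 counts only, and Hspb1 and Hspb7 overlap no other gene.

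**Figure D2:**
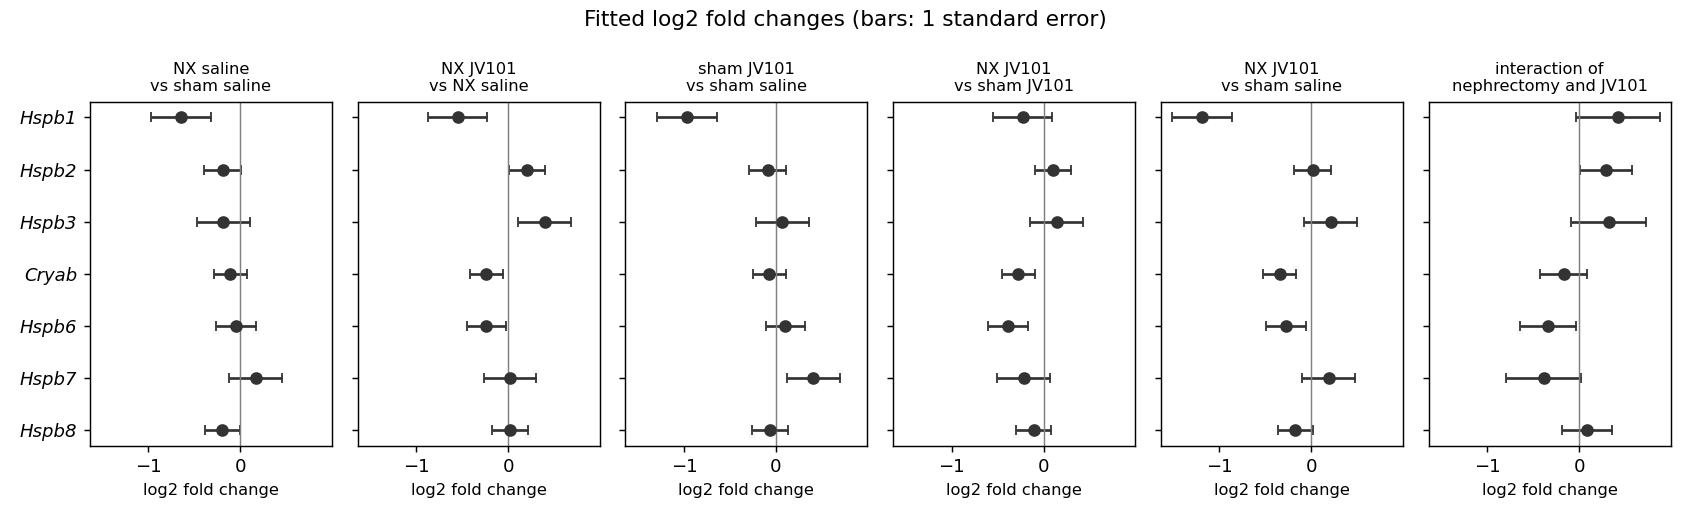
Fitted log2 fold change (horizontal axis) of each gene in the 6 comparisons, with bars of 1 standard error. The points of Hspb1 lie below 0 in the 5 comparisons of groups, from −1.19 to −0.22, while those of the other 6 genes lie between −0.38 and 0.41.

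As a set, the 7 members had a median log2 difference of −0.18 in NX saline against sham saline, with 6 of 7 negative, beside a median of 0.02 over all genes tested. In the same comparison 6 of 8 ventricular markers were negative (median −0.06) and 6 of 6 atrial markers (−1.48). Markers of several other cells were mostly positive: 6 of 6 of fibroblasts (0.48), 5 of 6 of endothelium (0.59) and 7 of 7 of smooth muscle and pericytes (0.45). So were 6 of 6 of macrophages (0.23), 5 of 5 of mesothelium (0.30), 4 of 4 of neutrophils (2.33) and 3 of 4 of adipocytes (1.65). Erythroid markers were negative (4 of 4, −1.04), as were 2 of 4 lymphocyte markers (−0.32) and 2 of 3 skeletal muscle markers (−0.26). None of these markers passed, and their part in the members' values was not tested. With JV101 after nephrectomy the members' median was 0.02 (3 of 7 negative) beside 0.01 over all genes. With JV101 in sham mice it was −0.06 (4 of 7 negative) beside 0.03. NX JV101 against sham JV101 gave −0.22 (5 of 7 negative) beside 0.00, and NX JV101 against sham saline gave −0.17 (4 of 7 negative) beside 0.03. The comparisons with sham saline share its 3 libraries, and Hspb1 and Cryab were the members below 0 in each of the 5 comparisons of pairs of groups. On the deposited FPKM, with limma on log2(FPKM + 1), Hspb1 stayed below 0 in each of the 5 but was nearer to it, at −0.0044 in NX JV101 against sham JV101 and −0.19 in NX JV101 against NX saline, while Cryab was at 0.11 in NX JV101 against NX saline and at 0.03 in sham JV101 against sham saline. In the former of these the median of all genes moved from 0.01 to 0.21, and the members other than Hspb1 lay between 0.11 and 0.65.

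Summed per kilobase, the family stood at 1767 ± 130 CPM per kilobase (sham saline), 1722 ± 369 (sham JV101), 1622 ± 232 (NX saline) and 1459.6 ± 45.1 (NX JV101). The group ranges of sham JV101 and NX saline overlapped with every other group, and the NX JV101 libraries (1426 to 1511) lay below those of sham saline (1690 to 1918) without overlap, beside 18.5% of all genes tested whose libraries do not overlap in this comparison. That separation depends on dividing each gene by its implied length, 903 bases for Hspb1 and 2768 for Hspb7. Summed as plain CPM the groups overlapped, with sham saline replicate 2 below NX JV101 replicate 1. Hspb7, the largest member by CPM, was at 861 CPM in the former library and 1385 in the latter. In NX JV101 against sham saline, 6 of 8 ventricular markers were negative (median −0.16). The markers of fibroblasts (6 of 6, median 0.60), endothelium (6 of 6, 0.64) and smooth muscle and pericytes (7 of 7, 0.84) were positive. So were those of macrophages (6 of 6, 0.36), atrial cells (6 of 6, 0.33) and adipocytes (4 of 4, 1.43), and 2 of 4 of neutrophils (0.73). Those of mesothelium (5 of 5, −1.11), erythroid cells (4 of 4, −2.31) and lymphocytes (4 of 4, −2.75) were negative, as were 2 of 3 of skeletal muscle (−0.71). The part of these markers in the lower sum per kilobase was not tested. The make-up of this sum shifted with Hspb1. Its share was 11.4%, 29.3% and 17.0% in sham saline replicates 1 to 3, and 13.4%, 11.2% and 6.58% in the sham JV101 libraries. NX saline gave 8.91%, 12.6% and 20.2%, and NX JV101 gave 8.44%, 11.2% and 10.9%. Cryab kept to 25.5% to 31.5% and Hspb6 to 14.1% to 18.0% of the sum in all 12 libraries. Hspb7 ranged from 18.4% in sham saline replicate 2 to 37.4% in sham JV101 replicate 3. The level of Hspb1 per kilobase was accordingly 1.60 times that of Hspb7 in sham saline replicate 2 and 0.176 times in sham JV101 replicate 3. Hspb2 took 2.96% to 3.31% of the sum in NX JV101, above its 2.28% to 2.60% in NX saline and its 2.45% to 2.57% in sham JV101, though 2.15% to 3.00% in sham saline overlapped. This share was singled out after its values were seen and was not tested.

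**Figure D3:**
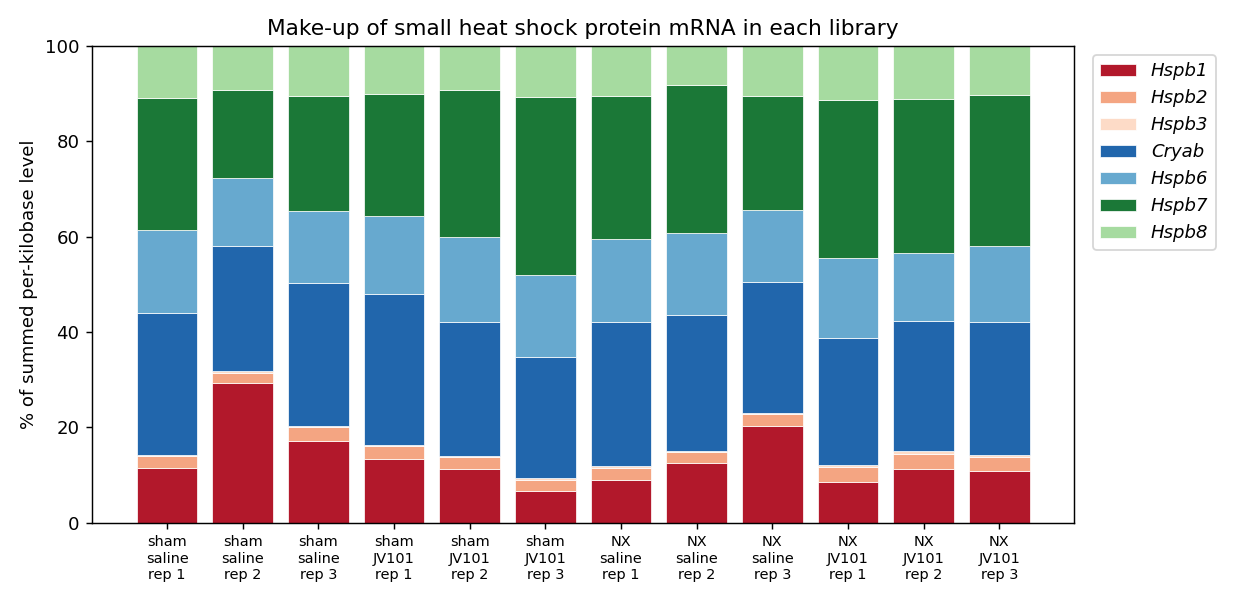
Share of each gene (percent, stacked to 100) in the summed per-kilobase level of the 7 genes, with 1 bar per library. Hspb1 takes from 6.58% to 29.3% and Hspb7 from 18.4% to 37.4%, while Cryab stays between 25.5% and 31.5%.

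Between libraries of 1 group, Hspb1 and Hspb7 varied most, with SDs of 0.45 and 0.39 on the log2 scale. These were larger than in 84.4% and 80.5% of the 6834 genes at 10 CPM or more, whose median was 0.23. Cryab, at 0.20, was larger than in 37.7% of them, and Hspb3 (0.34), Hspb6 (0.28), Hspb2 (0.26) and Hspb8 (0.24) lay between. The ratio of the highest to the lowest library was 3.98 for Hspb1, 2.28 for Hspb7, 2.06 for Hspb3, 1.76 for Hspb6, 1.73 for Hspb2, 1.55 for Hspb8 and 1.52 for Cryab. In NX JV101 the spread was smallest in Cryab and Hspb7, with a CV of 1.63% and 5.05%, against 19.1% and 26.0% in NX saline. The other members of that group ran from 7.11% (Hspb8) to 15.8% (Hspb3). These CVs were singled out after their values were seen and were not set against all genes.

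The members were compared with each other over the 12 libraries in 21 pairs, as Pearson's r of log2 CPM with p-values from 100000 permutations, adjusted over the pairs. Cryab and Hspb6 varied most closely together (r = 0.88, adjusted permutation p = 0.00714, Spearman's rho = 0.85, adjusted p = 0.0152). Hspb2 and Hspb8 had r = 0.83 (adjusted permutation p = 0.0162, rho = 0.78, adjusted p = 0.0287), and Hspb6 and Hspb7 had r = 0.75 (adjusted permutation p = 0.0334, rho = 0.83, adjusted p = 0.0152). Leaving out the 2 libraries farthest from the median of the first-named gene of each pair gave r of 0.91, 0.72 and 0.83 for these 3 pairs. Subtracting each group's mean gave 0.88, 0.89 and 0.92. No other pair passed with r, and 16 of 21 pairs were positive. By rho a further pair passed, Hspb6 with Hspb8 (rho = 0.73, adjusted permutation p = 0.0467; r = 0.72, adjusted p = 0.0585). The 5 negative pairs were those of Hspb1 with every member but Cryab, and the lowest r was −0.60 with Hspb7 (permutation p = 0.0381, adjusted 0.0919), which was −0.48 without the 2 libraries farthest from the median of Hspb1. Hspb2 and Hspb3, which form a complex, had r = 0.60 (adjusted permutation p = 0.0919). How many pairs passed depended on the libraries and the scaling: 11 passed after subtracting group means, 1 without sham JV101 replicate 1, 7 without NX saline replicate 2, and 0 without the 3 libraries of highest mitochondrial share. The permutations after subtracting group means took no account of the means subtracted. The p-values behind that count of 11 may therefore be too small.

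**Figure D4:**
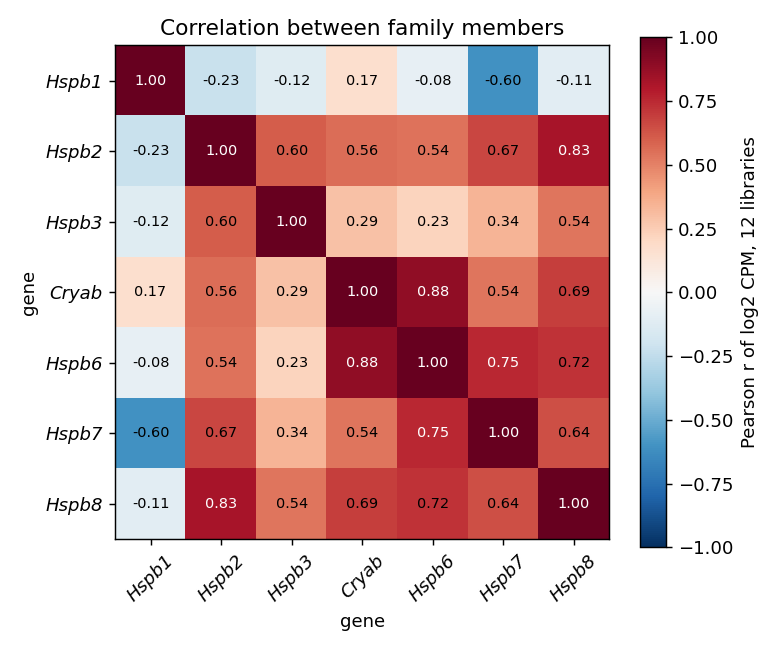
Pearson's r of log2 CPM over the 12 libraries for each pair of the 7 genes (colour from −1 to 1, value printed in each cell). Cryab, Hspb6, Hspb7, Hspb8 and Hspb2 are positive with each other, from 0.54 to 0.88, and Hspb1 runs from −0.60 to 0.17 with the other 6.

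Outside the family, the 3 genes most like Hspb1 over the 12 libraries, among 6828 genes with a mean of 10 CPM or more, were all chaperones or co-chaperones. They were Hsp90aa1, the inducible cytosolic Hsp90 (r = 0.93), Ptges3, the Hsp90 co-chaperone p23 (0.93), and Hsph1, a nucleotide exchange factor of Hsp70 (0.92). Without sham saline replicate 2, which was the highest library for each of them, r was 0.88, 0.87 and 0.86, and after subtracting group means it was 0.88, 0.92 and 0.90. Sham saline replicate 2 stood 1.30 above the gene's mean in log2 CPM for Hspb1, 1.55 for Hsp90aa1, 1.44 for Hsph1 and 0.53 for Ptges3. These correlations are descriptions over libraries that share depth and scaling, and carry no test. Over the whole list of 21 large heat shock proteins and co-chaperones, the median r with Hspb1 was 0.63, with 20 of 21 positive, beside a median of −0.01 over all genes searched. The median r with that list was 0.41 for Cryab (17 of 21 positive), 0.25 for Hspb3 (20 of 21), 0.24 for Hspb2 (15) and for Hspb8 (16), 0.17 for Hspb6 (14) and −0.18 for Hspb7 (7). Without sham saline replicate 2 it was 0.55 for Hspb1 (20 of 21 positive) and 0.54 for Cryab (17), which were nearly alike. It was then 0.43 for Hspb2 (20), 0.40 for Hspb8 (16), 0.30 for Hspb6 (16), 0.24 for Hspb3 (18) and 0.11 for Hspb7 (12). After subtracting group means Hspb1 and Cryab were apart, at 0.58 (16 of 21 positive) and 0.19 (13). The other values were 0.47 for Hspb3 (19), 0.13 for Hspb2 (14), 0.02 for Hspb8 (12), 0.01 for Hspb6 (11) and −0.06 for Hspb7 (10).

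The other members resembled different genes. Most like Cryab were Rmdn1 (0.96), Ccng1 (0.95) and Mtif2 (0.94), and most like Hspb6 were Gk (0.97), Ssbp2 (0.96) and Coq5 (0.96), a methyltransferase of coenzyme Q synthesis. Hspb7 was nearest to Eif1ad (0.96), Sord (0.94), which makes fructose from sorbitol, and Rrp12 (0.94). Hspb8 was nearest to Dusp27 (0.96), Popdc2 (0.96), a cAMP-binding membrane protein of heart muscle, and Maea (0.96). Hspb2 was nearest to Naxe (0.97), Osgep (0.96) and Myl3 (0.93), the ventricular essential light chain, and Hspb3 to Nppb (0.88), the gene of brain natriuretic peptide, Mrpl40 (0.84) and Taldo1 (0.81). With the 8 ventricular markers, the median r was 0.39 for Hspb3, 0.63 for Hspb7, 0.66 for Cryab, 0.69 for Hspb2, 0.76 for Hspb8 and 0.79 for Hspb6, positive with 8 of 8 markers for each. For Hspb1 that median was −0.14, positive with 2 of 8. Without the 3 libraries of highest mitochondrial share the median was 0.04 for Hspb1 (6 of 8 positive) and 0.25 for Hspb3 (6 of 8), and it kept 8 of 8 for the other 5 members. The summed level of those markers ran from 28730 CPM in sham JV101 replicate 1, where Hspb2 and Hspb8 were at their lowest, to 51561 CPM in sham JV101 replicate 3, where Hspb7 was at its highest. The part of cardiomyocyte content in these relations was not tested.

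**Figure D5:**
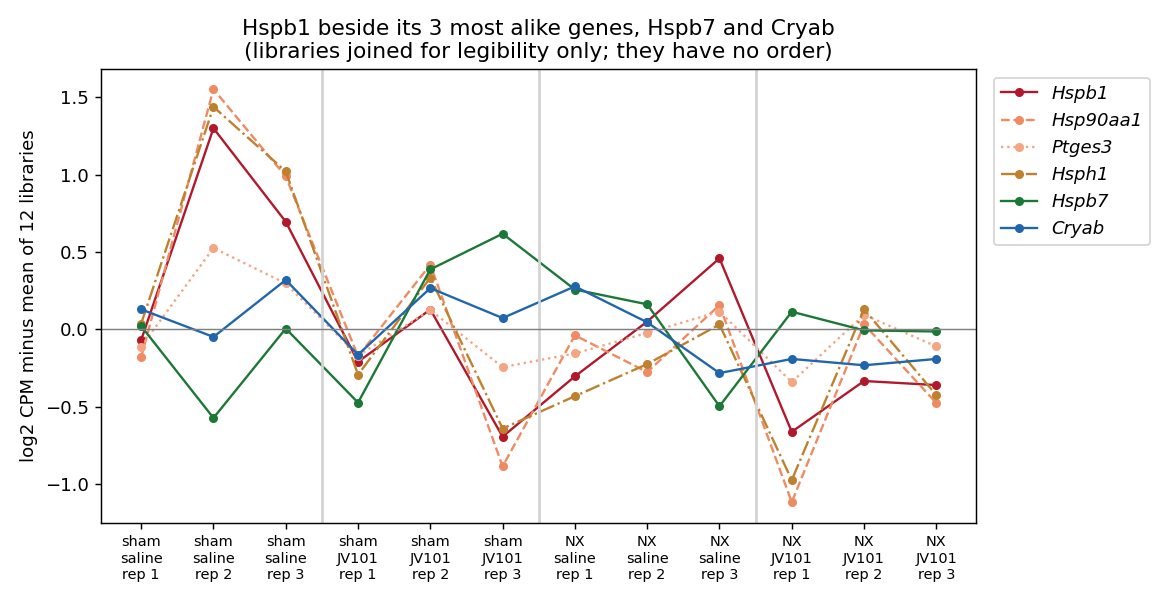
Deviation in log2 CPM from each gene's own mean, by library, for Hspb1, its 3 most alike genes, Hspb7 and Cryab; lines join libraries for legibility and imply no order. Hspb1, Hsp90aa1, Hsph1 and Ptges3 peak together in sham saline replicate 2, at 1.30, 1.55, 1.44 and 0.53, where Hspb7 is at −0.57.

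Partners and regulators of the family were read from lists of genes, and no gene of any list passed in any comparison, in either direction. Among the 21 large heat shock proteins and co-chaperones, 21 were negative in NX saline against sham saline (median −0.56), 20 in sham JV101 against sham saline (−0.43) and 20 in NX JV101 against sham saline (−0.61). With JV101 after nephrectomy 15 were negative (−0.10), in NX JV101 against sham JV101 16 were (−0.19), and in the interaction 4 were (median 0.31). For some of these genes the sham saline libraries stood apart from each other. Replicates 2 and 3 were at 371 and 251 CPM of Hsp90aa1 against 112 in replicate 1, and at 137 and 102 CPM of Hsph1 against 51.7. For others they were closer together and lay above NX saline: Hspa4l at 56.2 to 59.9 CPM against 36.7 to 41.2, and Stip1 at 86.8 to 118 against 53.6 to 61.8. Hspa1a overlapped, at 10.2 to 112 CPM against 4.28 to 27.9. Over all genes tested, 10.8% did not overlap between NX saline and sham saline. The part of single libraries in these differences was not tested. In the comparisons with sham saline the markers of fibroblasts, endothelium, smooth muscle and macrophages had positive medians, from 0.12 to 0.84, as had neutrophil markers (0.73 to 2.53). Erythroid, lymphocyte and skeletal muscle markers had negative medians, from −2.75 to −0.26. Those of mesothelium, atrial cells and adipocytes took both signs. The part of these markers was not tested. Of the 21 chaperone genes, 11, 9, 13, 4, 1 and 5 had an unadjusted edgeR p under 0.05, in the order of comparisons given above. Over all genes tested the shares were 3.64%, 1.7%, 6.21%, 2.39%, 2.07% and 1.78% in the same order. Stip1, which links Hsp70 to Hsp90, was at 58.4 ± 4.27 CPM in NX saline and 105 ± 16.5 in sham saline, a log2 difference of −0.85 (SE 0.21, edgeR adjusted p = 0.994). Hspa4l, a relative of Hsph1, was at 39.5 ± 2.40 and 58.1 ± 1.86 CPM (−0.56, SE 0.16), and Hsph1 itself at 44.0 ± 7.13 and 96.9 ± 42.7 CPM (−1.14, SE 0.37). Hspa1a, the inducible Hsp70, had means of 73.5 ± 55.2 CPM (sham saline), 15.2 ± 13.3 (sham JV101), 15.7 ± 11.8 (NX saline) and 65.3 ± 16.3 (NX JV101). Its log2 difference with JV101 after nephrectomy was 2.07 (SE 0.86, edgeR adjusted p = 1.00), whereas that of Hspb1 was −0.55. Hspa1a has a near-identical copy, Hspa1b, and reads may be split between them.

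Of the 6 partners of Hspb8 in selective autophagy, of which Bag3 and Hspa8 are also among the 21 large chaperones, 5 were negative in NX saline against sham saline (median −0.25). Bag3, the scaffold that holds Hspb8 and Hsc70 together, was at 231 ± 20.5 CPM in sham saline, 151 ± 19.6 in NX saline and 150.1 ± 23.0 in NX JV101. Its log2 difference was −0.62 after nephrectomy (SE 0.20, unadjusted p = 0.0102, edgeR adjusted p = 0.994), while Hspb8 had −0.19. Hspa8, the Hsc70 of that complex, had −0.47 (SE 0.26), Synpo2 −0.31 (SE 0.23) and the autophagy receptor Sqstm1 0.07 (SE 0.17).

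Among 7 cytoskeletal and sarcomeric clients, 6 were negative in NX saline against sham saline (median −0.13) and 5 in NX JV101 against sham saline (median −0.24), while 6 were positive in sham JV101 against sham saline (median 0.04). In NX JV101 against sham saline, Flnc, which Hspb7 and Bag3 bind, had −0.65 (SE 0.29), titin (Ttn) −0.84 (SE 0.47), Actc1 −0.24 (SE 0.27) and Lmna 0.10 (SE 0.12), and none of them passed. Of 10 kinases that act on the family and their activators, 7 were negative after nephrectomy (median −0.13). Prkd1, protein kinase D, which phosphorylates Hspb1, was at 5.80 ± 1.20 CPM in NX saline and 3.04 ± 0.22 in sham saline (log2 difference 0.93, SE 0.34, edgeR adjusted p = 0.994). Mapkapk2 had −0.08 (SE 0.20), Mapkapk3 −0.32 (SE 0.23) and Mapk14, their activator p38 alpha, −0.24 (SE 0.16). The heat shock factors and their inhibitor were balanced after nephrectomy, with 2 of 4 negative: Hsf1 had −0.16 (SE 0.16), Hsf2 −0.17 (SE 0.17), Hsf4 0.06 (SE 0.40) and Hsbp1 0.06 (SE 0.15). Hspb11 had −0.30 (SE 0.33).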

How the data were processed

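RNA of isolated cardiomyocytes was sequenced as polyA libraries, per the labels' protocols. Per the submitters' processing notes, fastp, HISAT2 and HTSeq were used with GRCm39; their versions, the annotation and the strand setting are not stated in the labels. Counts per gene, as the authors deposited them, served for all tests, and the FPKM that the authors deposited served for an alternative and for gene lengths. Genes were filtered with filterByExpr (minimum count 10, minimum total 15), scaled with TMM and fitted with edgeR's quasi-likelihood model over all 12 libraries with 4 groups. Each contrast had a 2-sided F test adjusted by Benjamini-Hochberg over all 14412 genes tested, with a threshold of 0.05. Standard errors come from the log2 fold change and F (size over root F). Log2 CPM for correlations used a prior count of 2. Lengths implied by counts and FPKM were the same in all libraries (largest relative difference 1.5e-08 over 9643 genes with 50 counts or more). R 4.3.3, edgeR 4.0.16, limma 3.58.1, DESeq2 1.42.0 and Python 3.11.15 were used.

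The members and the 19 lists (7 of pathways, 12 of cell types) were chosen with earlier results of these data known. The members were named throughout, with the 3 most correlated genes of each outside the family and up to 4 genes of each pathway list with the smallest p. Of the list genes, 2 are not in the table. The fits were tested on simulated data with known changes before use. Promoter windows and overlaps come from RefSeq GRCm38.p6, an older build than that of the data, and served for sequence and names only. No figure shows sequence. No libraries were found to be duplicates: at most 2.55% of genes had identical counts in any pair.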

Additional observations from a re-analysis of the deposited data

How the results depend on the processing

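Over 785 alternative values of the members' log2 differences, 721 kept their direction, 64 changed sign and 0 reached an adjusted p under 0.05. The largest absolute value after a change of sign was 0.21. Every alternative but DESeq2 called 0 genes in each comparison, as the edgeR fit did. DESeq2 called 1 gene for NX saline against sham saline, 8 for NX JV101 against NX saline, 8 for NX JV101 against sham saline and 0 elsewhere, and none was a member. Deviations of same-numbered samples from their group means had a median r of −0.03 (18 pairs, r from −0.50 to 0.25, 6 over 0.1). For differently numbered samples of different groups the median was 0.02 (36 pairs, r from −0.54 to 0.55, 10 over 0.1). The numbers are therefore not taken to pair the samples. The fit with the replicate block called 0 genes in every comparison.

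With DESeq2 the members whose sign turned were Hspb7 −0.0049 and Hspb8 −0.0056 (NX JV101 against NX saline) and Hspb2 −0.010 (NX JV101 against sham saline). With RLE factors they were Hspb7 −0.0049 and Hspb8 −0.0055 (NX JV101 against NX saline) and Hspb2 −0.0093 (NX JV101 against sham saline). Without mitochondrially encoded genes the sign turned for Hspb2 −0.0013 (NX JV101 against sham saline). On log2(FPKM + 1) with limma they were Cryab 0.11 and Hspb6 0.11 (NX JV101 against NX saline), Hspb2 0.023, Cryab 0.035 and Hspb8 0.027 (sham JV101 against sham saline), Hspb7 0.043 and Hspb8 0.10 (NX JV101 against sham JV101), Hspb6 0.019 and Hspb8 0.13 (NX JV101 against sham saline) and Cryab 0.080 (the interaction). With a pseudocount of 0.1 they were Cryab 0.11 and Hspb6 0.11 (NX JV101 against NX saline), Hspb2 0.026, Cryab 0.035 and Hspb8 0.027 (sham JV101 against sham saline), Hspb7 0.043 and Hspb8 0.10 (NX JV101 against sham JV101), Hspb6 0.019 and Hspb8 0.13 (NX JV101 against sham saline) and Cryab 0.080 (the interaction). On that scale the median of all genes was 0.32 (NX JV101 against NX saline) or 0.29 (NX JV101 against sham saline). With the mitochondrial share as a covariate, chosen after seeing the data, they were Hspb7 −0.11 and Hspb8 −0.0081 (NX JV101 against NX saline) and Hspb2 −0.0048 (NX JV101 against sham saline). Without the 3 libraries of highest share, also chosen after seeing the data, they were Hspb3 0.016 and Hspb6 0.051 (NX saline against sham saline), Hspb7 −0.21 and Hspb8 −0.066 (NX JV101 against NX saline), Hspb3 −0.095 and Hspb6 −0.13 (sham JV101 against sham saline) and Hspb2 −0.14 (NX JV101 against sham saline). The cause of these changes was not tested.

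Leaving out 1 library at a time turned the sign of some members, whose ranges were Hspb6 −0.18 to 0.13, Hspb2 −0.32 to 0.0019 and Cryab −0.25 to 0.048 in NX saline against sham saline. For sham JV101 against sham saline the ranges were Hspb3 −0.13 to 0.22, Hspb2 −0.22 to 0.11, Cryab −0.18 to 0.033, Hspb8 −0.20 to 0.10 and Hspb6 −0.039 to 0.30. For NX JV101 against sham saline the range was Hspb2 −0.12 to 0.21. For NX JV101 against sham JV101 the ranges were Hspb2 −0.052 to 0.22, Hspb3 −0.0016 to 0.34, Hspb7 −0.47 to 0.012 and Hspb8 −0.27 to 0.022. For the interaction the range was Hspb8 −0.077 to 0.26. For NX JV101 against NX saline the ranges were Hspb8 −0.078 to 0.19 and Hspb7 −0.20 to 0.17.

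The number of correlated pairs (3) was 11 after subtracting group means, where the p-values may be too small as stated above. It was 15 on log2(FPKM + 1), 5 with RLE factors, 5 without mitochondrially encoded genes and 0 without the 3 libraries of highest mitochondrial share. It ran from 1 to 7 when each library was left out. Group means of members under other scalings kept within 1 SD in 56 of 84 cases, and the other 28 were those computed without mitochondrially encoded genes, where library totals are smaller.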
